A study of Mus musculus with 20 samples.

Results

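The 9 genes described here encode amino acid transporters that work in the kidney tubule: Slc3a1, Slc3a2, Slc7a7, Slc7a8, Slc7a9, Slc7a13, Slc6a18, Slc6a19 and Slc1a1. They were taken by gene symbol from the 47069 genes of the count table, and all 9 were among the 17622 genes that passed the filter on low counts. The RNA was from kidneys of 20 male mice of a 129SJ x C57Bl/6J F1 background, killed at 15 weeks of age. The WT group (5 mice) was untreated and carried intact Col4a3. The Veh (6 mice), anti-miR-21 (6 mice) and ACEi (3 mice) groups were all Col4a3-/-, without a collagen IV chain of the glomerular basement membrane, which makes them a model of Alport syndrome. Treatment began at 5 weeks of age. Veh mice had weekly subcutaneous PBS. Anti-miR-21 mice had weekly subcutaneous lademirsen, a modified oligonucleotide that blocks miR-21, at 50 mg/kg in PBS, and ACEi mice had the angiotensin-converting enzyme inhibitor ramipril at 11 mg/L in their drinking water and, by the study's methods, PBS injections. Whole kidney was sequenced, so fewer cells of a type and less RNA per cell cannot be told apart in any result below.

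Amino acids that pass the glomerular filter are taken back by the proximal tubule. Transporters of the brush border bring them into the cell, and transporters of the basolateral membrane pass them on towards the blood. Slc3a1 and Slc3a2 encode heavy chains, single-pass glycoproteins that bring a light chain of the Slc7 family to the membrane. Slc3a1 serves the brush border with Slc7a9, for cystine and basic amino acids, and in rodents also with Slc7a13, in the last segment of the proximal tubule. Slc3a2 serves the basolateral side with Slc7a7, for basic amino acids, and with Slc7a8, for neutral ones, and it is also used by many other cells. Slc6a19 and Slc6a18 are sodium-dependent carriers of neutral amino acids that need collectrin, the product of Cltrn, to reach the brush border. Slc1a1 carries glutamate and aspartate. Loss of Slc3a1 or Slc7a9 causes cystinuria, loss of Slc7a7 lysinuric protein intolerance, and loss of Slc6a19 Hartnup disorder.

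Total counts on genes ran from 28474301 to 29479629 per mouse, a narrow range, and the members had between 270 and 31947 counts in a mouse. Values are given as CPM, counts scaled to a common library size, after TMM scaling, which corrects for differences in RNA composition. The TMM factors lay between 0.77 and 0.85 in WT and between 1.12 and 1.26 in Veh, so the choice of scaling matters here. Over all genes tested, the median log2 difference of Veh and WT was 0.07 with TMM and 0.65 with library totals alone. Col4a3 was between 193.8 and 237.5 CPM in WT and between 27.9 and 74.9 CPM in the 15 knockout mice. The sequencing protocol's label names adipose tissue, while the tissue label names kidney. None of the 12 proximal tubule markers, the cells in which most members work, was at 0 in any group, and their summed level was 20680 to 26020 CPM in WT, 2896 to 6971 in Veh, 11270 to 19040 in anti-miR-21 and 11380 to 14290 in ACEi. The 5 adipocyte markers summed to between 0.525 and 410.1 CPM. The library names hold 2 flow cell identifiers, here called A (13 libraries) and B (7 libraries).

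In WT kidneys Slc7a13 was the most abundant member per length, at 485.9 ± 27.2 FPKM (fragments per kilobase of exon, scaled to the library's depth; SD, n = 5). Slc3a1 followed at 258.7 ± 12.9, Slc6a18 at 156.6 ± 18.4 and Slc1a1 at 79.3 ± 6.35 FPKM, and each of these 4 was above the next gene in that order in 5 of 5 WT mice. Slc3a2 (61.7 ± 9.60 FPKM), Slc7a7 (60.1 ± 16.5), Slc7a9 (57.8 ± 13.5) and Slc6a19 (54.1 ± 18.03) came next, and these neighbours did not differ beyond their spread. Slc7a8 was the lowest, at 32.9 ± 10.4 FPKM. In Veh kidneys the order was another. Slc7a13 was sixth by its mean, at 29.7 ± 24.3 FPKM (n = 6), but above the next gene, Slc7a8, in only 3 of 6 mice. Slc3a2 was second, at 82.79 ± 1.999 FPKM, behind Slc3a1 at 103.2 ± 18.02. In anti-miR-21 kidneys Slc7a13 was first again, at 319.5 ± 87.8 FPKM (n = 6), above Slc3a1 in 6 of 6 mice. In ACEi kidneys Slc3a1 was first at 184.9 ± 11.8 FPKM and Slc7a13 second at 177.1 ± 8.52 FPKM, with Slc3a1 the higher of both in 3 of 3 mice. The FPKM entries of Slc3a1, Slc7a7, Slc6a19 and Slc1a1 are marked by the authors as confounded with other genes.

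The members lie on 6 chromosomes of GRCm38. Slc6a18 (chr13:73661752-73678023, minus strand) and Slc6a19 (chr13:73679745-73704865, minus strand) are neighbours with 1722 bases between them. Slc6a19 overlaps the antisense gene Slc6a19os, Slc3a1 (chr17:85028376-85064236, plus strand) overlaps Prepl on the other strand, Slc7a7 overlaps Oxa1l, and Slc1a1 overlaps Gm5822 and 4430402I18Rik. Whether the counting used strand is not given in the sources used here, so reads of these 4 members cannot be fully separated from those of their overlapping partners. Slc7a13 (chr4:19818725-19842218, plus strand) and Slc3a2 (chr19:8706882-8723369, minus strand) overlap no annotated gene.

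The promoters of the 2 heavy chain genes are shown, since these genes share a role and, below, Slc3a1 fell in Veh and Slc3a2 did not pass. The sequences are RefSeq's, of GRCm38.p6, each with 250 bases before and 50 after the start of a transcript. Capitals mark the motif CAAAGTCCA, a form of the binding sequence of HNF4, a transcription factor of the proximal tubule.
Slc3a1, chr17:85028097-85028396, plus strand: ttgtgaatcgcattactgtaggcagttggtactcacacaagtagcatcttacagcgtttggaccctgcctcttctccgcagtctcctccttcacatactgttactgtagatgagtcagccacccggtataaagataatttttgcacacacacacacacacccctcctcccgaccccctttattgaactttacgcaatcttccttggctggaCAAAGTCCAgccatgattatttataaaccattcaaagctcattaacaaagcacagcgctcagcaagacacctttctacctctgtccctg
Slc3a2, chr19:8713848-8714147, minus strand: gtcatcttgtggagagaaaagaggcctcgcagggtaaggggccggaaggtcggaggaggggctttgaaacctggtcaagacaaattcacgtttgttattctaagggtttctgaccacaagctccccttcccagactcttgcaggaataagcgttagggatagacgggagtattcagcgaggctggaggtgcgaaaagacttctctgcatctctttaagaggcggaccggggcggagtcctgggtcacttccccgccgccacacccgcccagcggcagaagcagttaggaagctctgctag
The motif was searched on both strands. It stands 39 bases before the start in Slc3a1 and is in 0.475% of the 32851 promoters of the table. A promoter was matched for 7 of the 9 members, so that Slc7a13 and Slc6a18 were not searched. Among the 7, the motif was found in Slc3a1 alone. Slc7a7, Slc7a8, Slc7a9, Slc6a19 and Slc1a1, which lack it here, were also lower in Veh than in WT by edgeR (below). A link between the motif and the level of a gene was not tested. GGTCANAGG, a direct repeat that the same family of receptors can bind, was in 1.72% of all promoters and in none of the 7 members searched. GTTAATNAT, a form of the HNF1 sequence, was in 0.801% of all promoters and in none of the 7 members searched.

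The miRNA that lademirsen targets is shown for its seed, bases 2 to 8 of the mature strand, in capitals.
mmu-miR-21a-5p, chr11:86584120-86584141, minus strand: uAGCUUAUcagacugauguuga
The complement of that seed is ATAAGCT. It was in the 3′ UTR of 0 of the 9 members, whose 3′ UTRs are 141 to 2396 bases long, and in 7.62% of the 15245 tested genes with an annotated 3′ UTR, of a median length of 1129 bases.

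The first comparison, Veh compared to WT, asks how Col4a3-/- kidneys under PBS injections differed from untreated WT kidneys at 15 weeks. The loss of Col4a3 and the injections cannot be told apart in it. In Veh kidneys 8 of the 9 members were lower than in WT, beside 34.0% of all genes tested. The median log2 fold change of the members was -1.82, beside 0.07 over all genes. All 6 Veh mice lay below all 5 WT mice for 7 members, beside 26.1% of all genes. The exception to the lower level was Slc3a2. With library totals alone, and with limma on log2(FPKM + 1), 6 members were lower and 1, Slc3a2, was higher. In anti-miR-21 kidneys 7 members were higher than in Veh, beside 28.8% of all genes, with a median of 1.42, and the groups did not overlap for 5 members, beside 18.6% of all genes. With library totals alone or FPKM, 6 were higher and 1, Slc3a2, was lower. In ACEi kidneys all 9 were higher than in Veh, beside 21.0% of all genes, with a median of 1.02, and the groups did not overlap for 9, beside 19.8%. Of the 9, 7 passed with library totals alone, 6 with each FPKM fit, 5 within flow cell B and 6 without mouse A13. The shares of all genes in this paragraph are of the edgeR fit with TMM scaling over all 20 mice. None is given for the other settings, so their counts cannot be set beside these shares. Both treatments were compared to the same 6 Veh mice. Between anti-miR-21 and ACEi 0 members passed the threshold by edgeR, beside 0.584% of all genes. An unadjusted p under 0.05 was seen for 2 members, for which no share of all genes is given. Compared to WT, 4 members were lower in anti-miR-21 (19.8% of all genes) and 4 in ACEi (22.5% of all genes), and none was higher. With library totals alone 1 was lower in anti-miR-21 and 4 in ACEi, and Slc3a2 was higher in ACEi (log2 0.44, adjusted p = 0.000987).

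**Figure D1:**
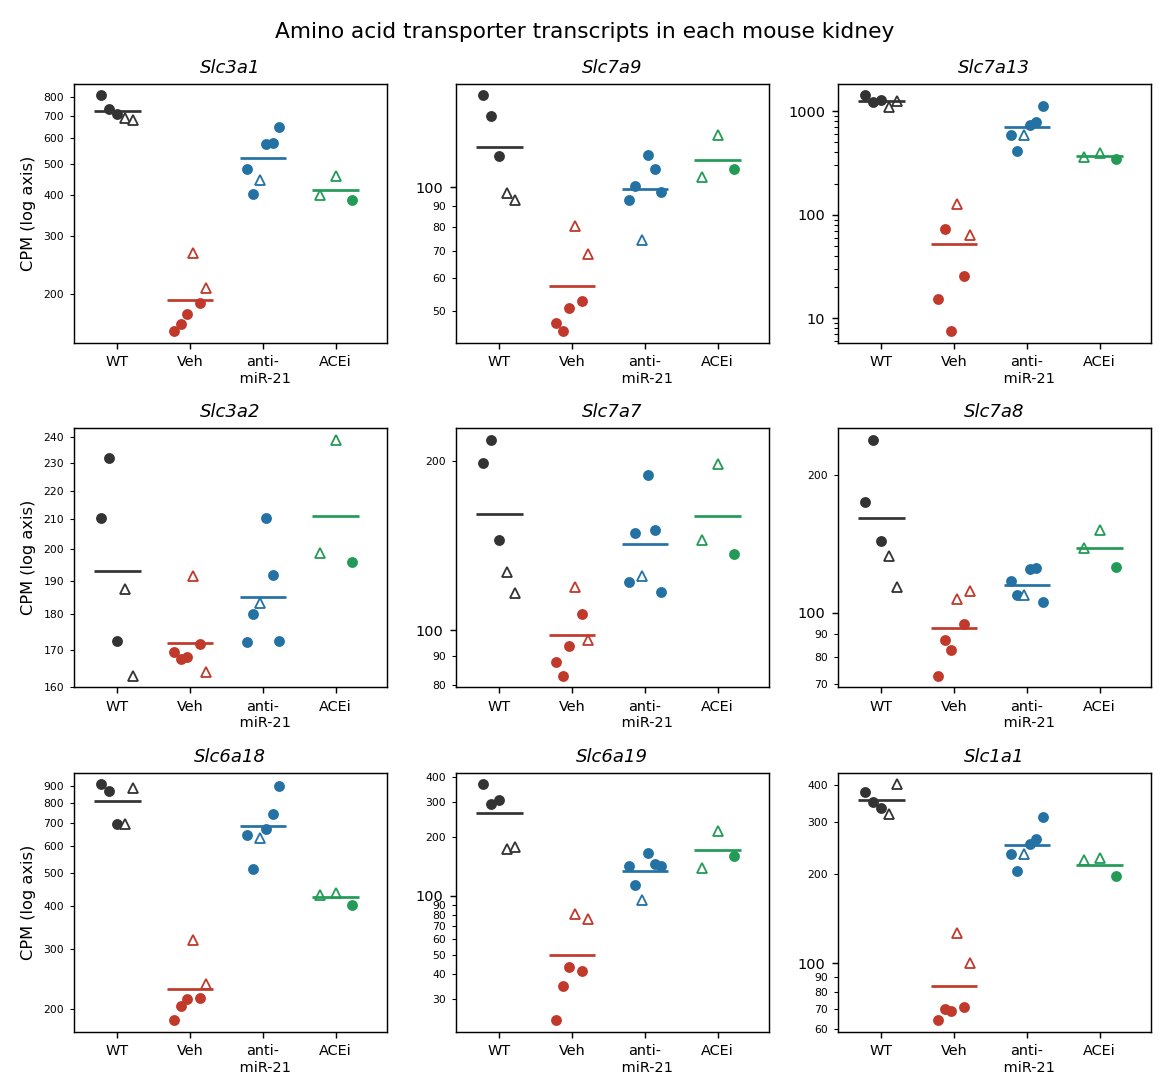
CPM of the 9 members in each of the 20 mice on a log axis, by group, with the group mean as a line; filled circles are libraries of flow cell A and open triangles those of flow cell B. Veh mice sit below WT mice in every panel but those of Slc3a2 and Slc7a7, and the Veh values of Slc7a13 spread from 7.56 to 126.6 CPM.

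Slc7a13, the light chain of the last proximal tubule segment, had the largest fall of the 9 members. Its WT values were 1423, 1217, 1271, 1101 and 1259 CPM. In Veh the lowest was 7.56, the median 44.8 and the highest 126.6 CPM, so that all 6 Veh mice were far below WT and also far from each other. In anti-miR-21 mice the lowest was 417.6, the median 663.9 and the highest 1117 CPM, and in the ACEi mice the values were 358.9, 395.6 and 344.7 CPM. Every treated mouse was above every Veh mouse. The log2 fold change was -4.59 (SE 0.51, adjusted p = 7.06e-08) in Veh compared to WT, a 24.1-fold lower level and the 26th lowest of the 17622 genes tested. It was 3.76 (SE 0.48, adjusted p = 1.66e-06) in anti-miR-21 and 2.82 (SE 0.51, adjusted p = 0.000259) in ACEi, each compared to Veh. Mean levels came to 4.14% of the WT mean in Veh, 56.2% in anti-miR-21 and 29.2% in ACEi. Compared to WT, Slc7a13 was lower in ACEi (log2 -1.78, adjusted p = 0.0169, 0.0566 without mouse A11 and 0.0608 without mouse A23) and did not pass in anti-miR-21 (log2 -0.83, 95% interval -1.71 to 0.05, adjusted p = 0.143). With only the WT and anti-miR-21 mice in the fit the same difference passed (log2 -0.83, adjusted p = 0.00335).

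Slc3a1, the heavy chain of the brush border, fell with it but less. It was 806.8, 734.3, 707.8, 689.3 and 680.8 CPM in the WT mice. In Veh it was 154.2 at the lowest, 180.4 at the median and 266.3 at the highest, in anti-miR-21 404.2, 528.6 and 646.5, and in the ACEi mice 401.6, 458.5 and 386.8 CPM. By CPM the 3 bands of WT, treated and Veh mice did not overlap. By FPKM the anti-miR-21 mouse A22 (250.5) was above the WT mice A14 (250.4) and A18 (242.6). The log2 fold change in Veh compared to WT was -1.91 (SE 0.13, adjusted p = 1.29e-10). It was 1.44 (SE 0.13, adjusted p = 4.97e-08) in anti-miR-21 and 1.11 (SE 0.15, adjusted p = 2.04e-05) in ACEi compared to Veh. Slc3a1 was still lower than in WT under both treatments, by a log2 of -0.47 (adjusted p = 0.00669) and -0.80 (adjusted p = 0.000506). In anti-miR-21 this was -0.24 with library totals alone (adjusted p = 0.0563) and -0.24 with limma on FPKM (adjusted p from 0.0522 to 0.0687), and did not pass.

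Slc7a9, the cystine light chain that pairs with Slc3a1, fell the least of these 3 brush border genes. Its WT values were 166.8, 148.4 and 118.6 CPM on flow cell A and 96.6 and 93.1 CPM on flow cell B. In Veh the lowest was 44.8, the median 51.9 and the highest 80.5 CPM, the last on flow cell B. Both WT mice of flow cell B were thus below the WT mice of flow cell A, while both Veh mice of flow cell B were above those of A. The log2 fold change in Veh compared to WT was -1.12 (SE 0.17, adjusted p = 5.04e-06). It was -1.55 within flow cell A and -0.35 within flow cell B, where it did not pass (adjusted p = 0.0823, the highest over its alternatives, the lowest being 1.37e-10), and -1.12 with flow cell as a term. Compared to Veh it was higher by 0.79 (SE 0.16, adjusted p = 0.000314) in anti-miR-21 and by 1.02 (SE 0.19, adjusted p = 0.000339) in ACEi.

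On the basolateral side the differences were smaller. Slc3a2, the heavy chain, was 210.3, 232.1, 172.3, 187.5 and 163.0 CPM in WT and between 163.9 and 191.6 CPM in Veh, with a median of 168.7. The Veh values lay inside the WT range. The log2 fold change was -0.17 (SE 0.09, adjusted p = 0.0872) in Veh compared to WT, which passed without WT mouse A14 (adjusted p = 0.0487), WT mouse A18 (0.0255) or Veh mouse A16 (0.0483). It was 0.11 (95% interval -0.05 to 0.27, adjusted p = 0.277) in anti-miR-21 compared to Veh. In ACEi mice Slc3a2 was 198.7, 238.9 and 196.1 CPM, all above the Veh mice, with a log2 fold change of 0.30 (SE 0.10, adjusted p = 0.0225, 0.175 without mouse A13). With library totals alone the direction turned: 0.41 (adjusted p = 0.000119) in Veh compared to WT and -0.23 (adjusted p = 0.0122) in anti-miR-21 compared to Veh. In ACEi compared to Veh it was then 0.02 (adjusted p = 0.849). A direction for Slc3a2 therefore depends on the scaling.

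Slc7a7, the basolateral carrier of basic amino acids, was between 116.6 and 217.9 CPM in WT and between 83.1 and 119.6 CPM in Veh. Only the highest Veh mouse reached into the WT range. Its log2 fold change was -0.72 (SE 0.16, adjusted p = 0.000478) in Veh compared to WT, 0.54 (SE 0.15, adjusted p = 0.00537) in anti-miR-21 and 0.70 (SE 0.18, adjusted p = 0.0049) in ACEi compared to Veh. Slc7a8, the basolateral carrier of neutral amino acids, was between 114.0 and 238.2 CPM in WT and between 73.1 and 111.7 CPM in Veh, without overlap. It was lower in Veh by a log2 of -0.79 (SE 0.14, adjusted p = 4.82e-05). It was higher in ACEi (log2 0.58, adjusted p = 0.00847) and did not pass in anti-miR-21 (log2 0.31, 95% interval 0.04 to 0.58, adjusted p = 0.0559, 0.0291 without Veh mouse A16 and 0.0236 without Veh mouse A20). With library totals alone neither gene passed in Veh compared to WT, at a log2 of -0.13 (adjusted p = 0.422) for Slc7a7 and -0.21 (adjusted p = 0.179) for Slc7a8. The rise of Slc7a7 in anti-miR-21 compared to Veh was then 0.20 (adjusted p = 0.231), and 0.17 with limma on log2(FPKM + 1) (adjusted p = 0.287). In ACEi it was 0.43 (adjusted p = 0.0448) and 0.41 (adjusted p = 0.0541), and Slc7a8 was at 0.31 (adjusted p = 0.124) and 0.30 (adjusted p = 0.117). Within flow cell B both were at -0.18 in Veh compared to WT (adjusted p = 0.439 and 0.241). In ACEi compared to Veh, Slc7a7 and Slc7a8 had an adjusted p of 0.0602 and 0.05 without mouse A13, which was the highest of the 3 ACEi mice for all 9 members.

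Slc6a19, the brush border carrier behind Hartnup disorder, was 368.6, 293.0 and 307.9 CPM in the WT mice of flow cell A and 172.1 and 177.8 CPM in those of flow cell B. In Veh it was 23.3 at the lowest, 42.5 at the median and 81.0 at the highest, with 81.0 and 76.0 CPM on flow cell B. WT and Veh mice did not overlap on either flow cell, but they were closer on B. The log2 fold change in Veh compared to WT was -2.40 (SE 0.28, adjusted p = 1.25e-07), -3.16 within flow cell A and -1.16 within flow cell B (adjusted p = 0.0028). In anti-miR-21 mice the values ran from 95.04 to 165.7 CPM, with a median of 142.1, and in ACEi mice they were 138.0, 213.1 and 159.1 CPM. Compared to Veh, Slc6a19 was higher by a log2 of 1.42 (SE 0.26, adjusted p = 0.000102) in anti-miR-21 and 1.77 (SE 0.30, adjusted p = 0.000145) in ACEi. It stayed lower than WT in anti-miR-21 (log2 -0.98, SE 0.27, adjusted p = 0.006, 0.0633 with limma on log2(FPKM + 1) without a filter), and in ACEi the difference from WT did not pass (log2 -0.63, adjusted p = 0.12).

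Slc6a18, its neighbour on the chromosome and a carrier of neutral amino acids, was 907.6, 867.6, 695.0, 694.2 and 883.0 CPM in WT. In Veh it was 185.5 at the lowest, 214.6 at the median and 318.4 at the highest. The log2 fold change was -1.82 (SE 0.14, adjusted p = 3.56e-10). In anti-miR-21 mice Slc6a18 ran from 511.8 to 898.9 CPM with a median of 658.5, and in ACEi mice it was 431.5, 436.5 and 404.0 CPM. All 6 anti-miR-21 mice were thus above all 3 ACEi mice. These groups did not overlap for 3 members, for which no share of all genes is given. Beside Slc6a18 they were Slc7a13, also higher in anti-miR-21, and Slc7a8, which was lower in anti-miR-21. Compared to Veh the log2 fold change was 1.58 (SE 0.13, adjusted p = 3.46e-08) in anti-miR-21 and 0.89 (SE 0.16, adjusted p = 0.000179) in ACEi. Between anti-miR-21 and ACEi it was 0.69 (SE 0.16), which did not pass by edgeR (adjusted p = 0.0569). DESeq2 called it (adjusted p = 0.00388), and over all alternatives the adjusted p ran from 0.00388 to 0.29. Compared to WT, Slc6a18 was lower in ACEi (log2 -0.93, adjusted p = 0.000173), while the anti-miR-21 group did not pass (log2 -0.24, adjusted p = 0.156, 0.0405 without mouse A22). Without the anti-miR-21 mouse A8 the difference from ACEi passed as well (0.76, adjusted p = 0.0236).

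Slc1a1, the carrier of glutamate and aspartate, was 377.3, 348.2, 334.1, 318.7 and 400.6 CPM in WT and 64.4 at the lowest, 70.8 at the median and 126.9 at the highest in Veh. Its log2 fold change was -2.09 (SE 0.15, adjusted p = 1.89e-10). Anti-miR-21 mice ran from 204.3 to 311.2 CPM, with a median of 243.6, and ACEi mice were at 223.4, 225.8 and 196.1 CPM. By CPM the treated mice lay between Veh and WT, without overlap with either. By FPKM the anti-miR-21 mouse A22 (75.2) was above the WT mice A14 (73.5) and A17 (74.1). Slc1a1 was lower in anti-miR-21 than in WT by edgeR (log2 -0.51, adjusted p = 0.00843). This did not pass with library totals alone (-0.28, adjusted p = 0.0706) or with limma on FPKM (adjusted p from 0.0678 to 0.0888). Compared to Veh the log2 fold change was 1.58 (SE 0.14, adjusted p = 5.88e-08) in anti-miR-21 and 1.36 (SE 0.17, adjusted p = 1.41e-05) in ACEi. Mouse A16 was the highest of the 6 Veh mice for Slc1a1 and for 8 of the 9 members, and its summed proximal tubule markers, at 6971 CPM, were also the highest of that group.

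**Figure D2:**
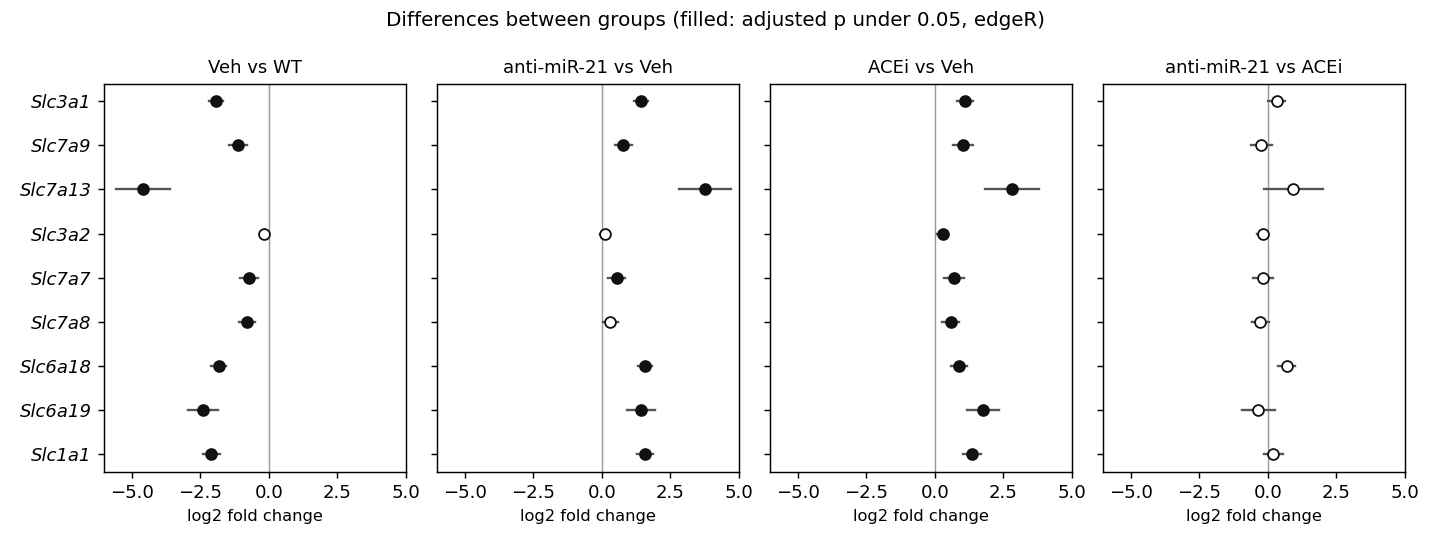
Log2 fold change with its 95% interval for the 9 members in 4 comparisons by edgeR; filled points passed an adjusted p of 0.05. In Veh compared to WT 8 points are filled and below 0, in ACEi compared to Veh 9 are filled and above 0, and between anti-miR-21 and ACEi 0 are filled.

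Several of these carriers work with a partner chain or protein, so the ratio of the partners' transcripts was taken within each mouse for 5 pairs. The sixth ratio, Slc6a18 to Slc6a19, is of neighbouring genes for separate carriers, not of partners. This ratio does not depend on the scaling between libraries. Of 24 tests (6 pairs, 4 comparisons, exact two-sided permutation test, Benjamini-Hochberg adjusted), 12 passed 0.05. The ratio of Slc7a13 to Slc3a1 was 0.79 ± 0.09 (log2, SD, n = 5) in WT, -2.44 ± 1.37 (n = 6) in Veh, 0.39 ± 0.24 (n = 6) in anti-miR-21 and -0.18 ± 0.03 (n = 3) in ACEi. It was lower in Veh than in WT by a log2 of -3.23 (exact p = 0.00433, adjusted 0.0148), and all 4 comparisons of this pair passed without overlap. The ratio of Slc7a9 to Slc3a1 moved the other way, from -2.57 ± 0.28 in WT to -1.75 ± 0.09 in Veh (difference 0.82, exact p = 0.00433, adjusted 0.0148). Among transcripts of the heavy chain's partners, Slc7a13 was thus scarcer and Slc7a9 more abundant per Slc3a1 transcript in Veh. In anti-miR-21 the ratio of Slc7a9 to Slc3a1 was -2.39 ± 0.25, lower than in Veh (difference -0.64, exact p = 0.00216, adjusted 0.0148). In ACEi it was -1.84 ± 0.08, which did not differ from Veh beyond the spread (difference -0.09, exact p = 0.19, adjusted 0.229).

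Slc7a7 to Slc3a2 was -0.29 ± 0.22 in WT and -0.82 ± 0.14 in Veh (difference -0.53, exact p = 0.00433, adjusted 0.0148). It was higher than in Veh in anti-miR-21 by 0.42 (exact p = 0.00216, adjusted 0.0148) and in ACEi by 0.40 (exact p = 0.0238, adjusted 0.0476). Slc7a8 to Slc3a2 was lower in Veh than in WT by a log2 of -0.60 (exact p = 0.00433, adjusted 0.0148). Slc7a7 and Slc7a8 were thus lower relative to their heavy chain in Veh, whichever scaling is used. The ratio of Slc6a19 to Cltrn passed in 0 of its 4 comparisons, with 1 at an unadjusted exact p under 0.05. Cltrn itself was lower in Veh than in WT (log2 -1.90, SE 0.17, adjusted p = 3.59e-09) and higher under both treatments, by 1.56 in anti-miR-21 and 1.29 in ACEi.

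Anti-miR-21 and ACEi differed in 3 of the 6 ratios. Slc6a18 to Slc6a19 was 2.35 ± 0.29 in anti-miR-21 and 1.34 ± 0.30 in ACEi (difference 1.01, exact p = 0.0238, adjusted 0.0476). Slc7a13 to Slc3a1 was higher in anti-miR-21 by 0.57 and Slc7a9 to Slc3a1 lower by -0.55, with the same exact p and adjusted p. The value 0.0238 is the smallest that 6 against 3 mice can give. With any mouse of these groups left out, the adjusted p of the 3 ratios was between 0.0659 and 0.122. Both calls of ACEi compared to Veh were lost in the same way. A smaller group raises the smallest p that the test can give, so these losses do not show that a result rests on 1 mouse. The 3 differences then stayed between 0.86 and 1.16, between 0.49 and 0.64, and between -0.63 and -0.48. Of the 3 ACEi libraries 2 were on flow cell B and of the 6 anti-miR-21 libraries 1, so that no within-flow-cell test of this comparison could be made. Within flow cell A the ratios of Veh and WT did not overlap for any of the 6 pairs, where 4 against 3 mice cannot go below an exact p of 0.0571. On flow cell B, Slc6a18 to Slc6a19 went the other way (2.01 and 2.31 in WT, 1.97 and 1.63 in Veh). So did Slc6a19 to Cltrn there (-2.89 and -3.03 in WT, -2.85 and -2.41 in Veh). The other pairs had the same direction on both flow cells.

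**Figure D3:**
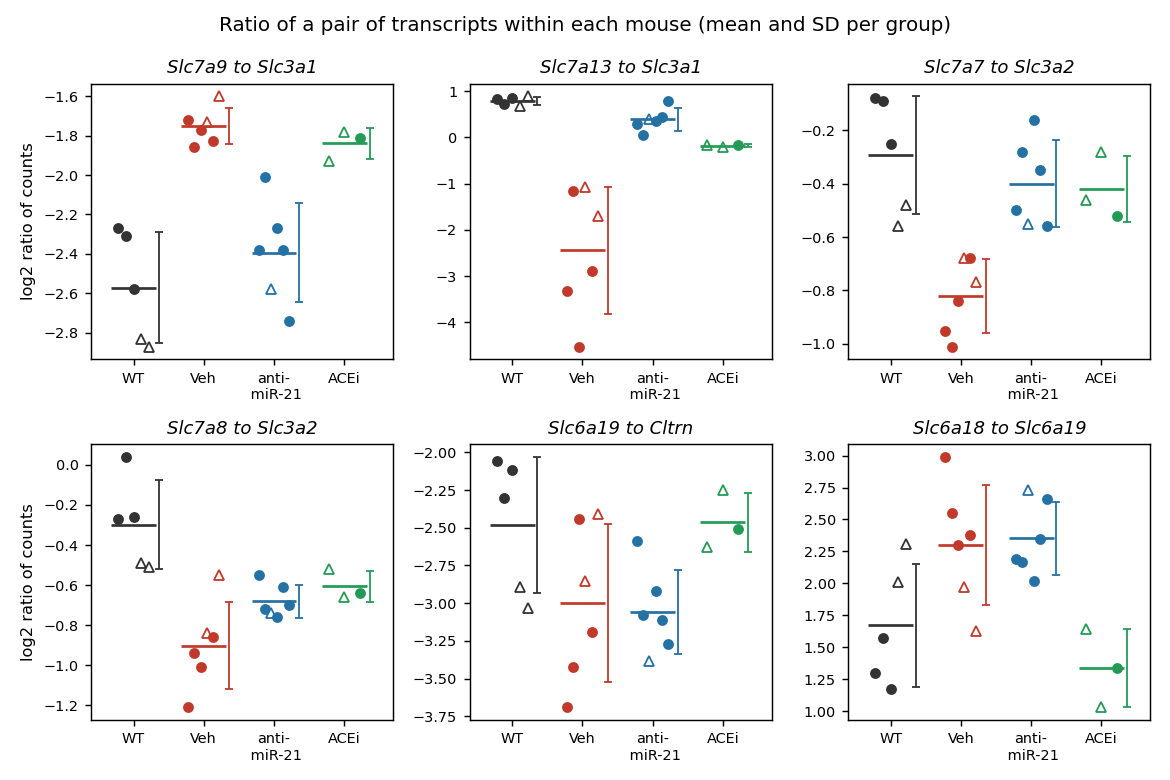
Log2 ratio of the counts of 2 transcripts in each mouse, by group, with mean and SD; filled circles are flow cell A and open triangles flow cell B. Slc7a13 to Slc3a1 falls from a mean of 0.79 in WT to -2.44 in Veh, while Slc7a9 to Slc3a1 goes from -2.57 to -1.75.

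The members were set beside the 12 proximal tubule markers, which all fell in Veh compared to WT (log2 -2.87 to -1.35) and all rose in anti-miR-21 (0.69 to 2.40) and in ACEi (0.54 to 1.98) compared to Veh. Taken as a log2 ratio to the summed markers of the same mouse, Slc7a13 was -4.18 ± 0.10 in WT and -6.89 ± 1.12 in Veh. Its mean ratio was thus lower in Veh by -2.71. Slc6a19 was at -6.49 in both groups, and the other 7 had a higher mean ratio in Veh, by 0.33 for Slc1a1, 0.53 for Slc3a1 and up to 2.31 for Slc3a2. These ratios are descriptions, and the part of the amount of proximal tubule RNA in the members' changes was not tested. The sum is of CPM, so the most abundant markers weigh most in it. By edgeR the median marker was at a log2 of -1.99 in Veh compared to WT. Beside it, Slc6a19 was at -2.40, Slc1a1 at -2.09, Slc3a1 at -1.91 and Slc6a18 at -1.82. The 6 macrophage markers rose in Veh compared to WT, with a summed level of 139.6 to 153.5 CPM in WT and 816.8 to 998.2 in Veh. The 6 tubule injury markers also rose, from 907.9 to 1010 CPM in WT and from 11910 to 18370 in Veh. Their part in the results was not tested.

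Other amino acid transporter genes did not move as a block. Of 29 listed genes, 14 rose in Veh compared to WT (39.0% of all genes tested were higher) and 11 fell (34.0% were lower). The median log2 fold change of the 29 was 0.08. Among those that fell were Slc6a20b, an imino acid carrier (log2 -2.66, adjusted p = 1.96e-10), Slc6a13, a carrier of GABA and taurine (-1.91, adjusted p = 5.14e-11), and Slc38a3, a glutamine carrier (-1.44, adjusted p = 2.18e-09). Slc6a20b was between 266.3 and 346.9 CPM in WT and between 31.5 and 76.9 CPM in Veh. Those that rose included carriers that growing or stimulated cells use: Slc7a2 and Slc7a1, for basic amino acids (log2 3.64 and 1.65), Slc7a5, a light chain of Slc3a2 for large neutral amino acids (2.79, adjusted p = 3.91e-11), and Slc1a5, for glutamine (0.97). Slc7a5 was between 2.004 and 4.65 CPM in WT and between 19.8 and 29.1 CPM in Veh. With TMM scaling Slc3a2 thus had partners that fell (Slc7a7, Slc7a8) and partners that rose (Slc7a5, Slc7a6 at log2 1.72) in the same kidneys. The fall of Slc7a7 and Slc7a8 did not pass with library totals alone (log2 -0.13 and -0.21).

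Compared to Veh, 11 of the 29 rose and 11 fell in anti-miR-21 (28.8% of all genes tested were higher and 30.5% lower). In ACEi 11 rose and 10 fell (21.0% of all genes were higher and 19.1% lower). Slc6a20b rose by 1.99 in anti-miR-21 and 1.71 in ACEi, and Slc7a5 fell by 1.71 and 1.32. Slc7a2 fell by 1.87 and 1.02. Compared to WT, 10 were still higher in anti-miR-21 (23.9% of all genes) and 10 in ACEi (25.2% of all genes). Lower than WT were 7 in anti-miR-21 (19.8% of all genes) and 8 in ACEi (22.5% of all genes). Slc6a6, a taurine carrier, was at a mean of 322.9 CPM in Veh and did not pass in any of the first 3 comparisons (log2 -0.05, 0.05 and -0.03, adjusted p from 0.619 to 0.814). The values of the 29 genes are given with TMM scaling only. Over all genes, the median log2 difference of Veh and WT went from 0.07 to 0.65 with library totals alone. Small differences among the 29, such as those of Slc6a6, can thus depend on the scaling. The peptide carrier Slc15a2 was lower in Veh than in WT (log2 -1.46) and higher under both treatments.

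**Figure D4:**
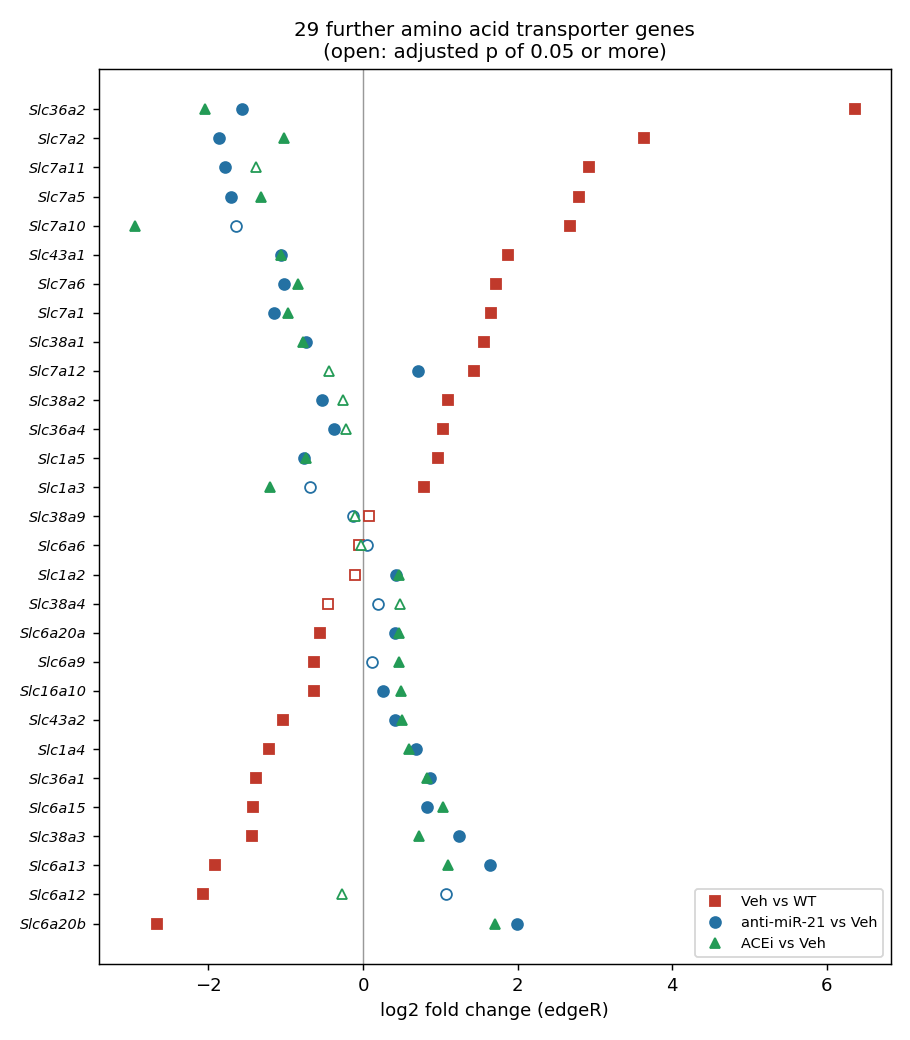
Log2 fold change of 29 further amino acid transporter genes, ordered by Veh compared to WT; squares are Veh compared to WT, circles anti-miR-21 compared to Veh and triangles ACEi compared to Veh, and open symbols did not pass. In Veh compared to WT 14 genes rose (39.0% of all genes tested were higher) and 11 fell (34.0% were lower).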

How the data were processed

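Kidney RNA of 20 mice was sequenced by the authors as paired-end reads, aligned to GRCm38 with the OmicSoft aligner OSA4, and deposited as estimated counts (expected counts) per Ensembl gene, not scaled between libraries, and as FPKM, made by the authors per exon length and library size. The FPKM table holds 3 columns that match no mouse and were not used. Each mouse was assigned to its group by its label, and each column by its library name. Replicate names are unique to a mouse. Nothing says that mice came from separate litters, so p-values measure the spread between these mice.

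Counts were rounded. Genes were filtered with filterByExpr of edgeR 4.0.16 (R 4.3.3, minimum count 10), scaled with TMM and tested with the edgeR quasi-likelihood test over all 20 mice, with 1 coefficient per group and Benjamini-Hochberg adjustment over all 17622 genes at 0.05. The methods of the study used log2(FPKM + 1), which is an alternative here, with limma 3.58.1. DESeq2 1.42.0, other scalings and filters, a term for the flow cell, fits within a flow cell, and fits with each mouse left out were also run. The script was checked on simulated counts. Ratios of 2 genes in a mouse were tested with an exact permutation test, in which the two-sided p is 2 times the smaller one-sided p. The members, lists and pairs were chosen with earlier results of these data known. Named are the 9 members, listed transporters, and for each member the 3 genes with the highest Pearson r of log2 CPM, of which some are not reported here.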

Additional observations from a re-analysis of the deposited data

Results flagged for a closer look

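Slc3a2 in the Veh mouse A16 was 191.6 CPM and stood apart from the other 5 Veh mice, which were between 163.9 and 171.5 CPM. This holds for CPM after TMM scaling. By FPKM mouse A16 was at 84.6, inside the range of the 6 Veh mice (80.4 to 85.5). It was the only such mouse among 27 sets of values (9 members in the 3 groups with enough mice), and chance gives about 1 in 20. Without mouse A16, Slc3a2 was lower in Veh than in WT by edgeR (log2 -0.20, adjusted p = 0.0483).

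The response of 3 ratios differed between the anti-miR-21 and ACEi groups by a test of the difference itself: Slc6a18 to Slc6a19 (1.01), Slc7a13 to Slc3a1 (0.57) and Slc7a9 to Slc3a1 (-0.55), each with an adjusted p of 0.0476 by the exact permutation test. With any mouse of these groups left out the adjusted p of each was between 0.0659 and 0.122. A smaller group raises the smallest p that the test can give, so this loss does not show that a result rests on 1 mouse.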

How the results depend on the processing

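Under other settings 1067 values of single members kept their direction and their side of the threshold, 49 no longer passed, 23 passed anew and 49 changed sign, of which 41 passed under neither setting. Of the ratios 49 no longer passed, 4 passed anew and 14, which passed under neither setting, changed sign. Slc3a2 reversed, past the threshold, with library totals alone (0.41 in Veh compared to WT, -0.23 in anti-miR-21 compared to Veh) and with limma on log2(FPKM + 1) (0.43, -0.24), on log2(FPKM + 0.1) (0.44, -0.24) and without a filter (0.43, -0.24). The other changes of sign did not pass. With library totals alone they were Slc7a8 in anti-miR-21 compared to Veh (-0.03), Slc3a2 (0.18) and Slc7a7 (0.06) in anti-miR-21 compared to WT, and Slc7a7 (0.30), Slc7a8 (0.10) and Slc7a9 (0.22) in ACEi compared to WT. With the 3 FPKM fits the same values were -0.02, 0.19, 0.09, 0.32 to 0.33, 0.14 to 0.15 and 0.23 to 0.24. Slc7a7 in ACEi compared to WT, at -0.01, also went to 0.02 with upper-quartile scaling, no filter or the 2 groups alone, 0.04 with at least 10 counts in every mouse, 0.03 with a flow cell term and between -0.19 and 0.12 with a mouse left out. With flow cell B alone Slc3a2 was at 0.02 in Veh compared to WT, and Slc7a7 (0.49), Slc7a8 (0.23), Slc7a9 (0.33) and Slc6a19 (0.01) changed sign in ACEi compared to WT. With a mouse left out, Slc3a2 in anti-miR-21 compared to WT was between -0.12 and 0.01, Slc7a9 in ACEi compared to WT between -0.20 and 0.03, and Slc7a7 between anti-miR-21 and ACEi between -0.26 and 0.02. Of the ratios in anti-miR-21 compared to Veh, Slc6a19 to Cltrn was 0.15 with FPKM, 0.19 with flow cell A alone and between -0.20 and 0.06 with a mouse left out, and Slc6a18 to Slc6a19 was -0.16, -0.28 and between -0.09 and 0.19. Slc7a7 to Slc3a2 between anti-miR-21 and ACEi was between -0.03 and 0.09 with a mouse left out. Members that passed in Veh compared to WT were 5 with flow cell B alone, and in ACEi compared to Veh also 5 there. Between anti-miR-21 and ACEi, 1 member (Slc6a18) passed with DESeq2, library totals alone, upper-quartile scaling, at least 10 counts in every mouse and each of the 3 FPKM fits, and from 0 to 1 with a mouse left out (1 without A8). Compared to WT, 1 member passed in anti-miR-21 with library totals alone and with both filtered FPKM fits, and 0 with FPKM without a filter. Of the ratio tests, 4 of 12 passed with flow cell A alone, and 7 to 12 of 24 with a mouse left out, where a smaller group raises the smallest p. Counting absolute differences for the two-sided p, a definition whose results were seen before the doubled p was settled as the one reported, gave 13 in place of 12, adding Slc6a19 to Cltrn between anti-miR-21 and ACEi (adjusted p = 0.044). The cause of the other changes was not tested.

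Library totals alone moved the share of higher calls over all genes from 53.4% to 81.2% in Veh compared to WT, from 48.6% to 20% in anti-miR-21 and from 52.4% to 20.5% in ACEi compared to Veh. Upper-quartile scaling gave 41.5% in the last. No paired analysis was possible because each mouse has a name of its own that pairs it with no other. ACEi had 3 mice, which limits every comparison with it.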

Other observations

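Each member was set beside the 13188 genes other than the members whose mean log2 CPM was 1 or more, and those with the highest Pearson r over the 20 mice were named, up to 3 a member. These r are descriptions, with no p, and span mice of 4 groups that differ. Slc3a1 was most like Cat and Cryz (each r = 0.996), and Slc1a1 most like Abcd3 (0.996), Gcnt1 and Gk (each 0.995). Slc7a13 was most like Slc22a22 (0.995), Cyp2j11 (0.993) and Slc22a19 (0.992). Slc6a18 was most like Mgam (0.985), and Slc6a19 most like Slc4a4, the bicarbonate carrier of the basolateral membrane (0.98). Slc7a9 was most like Asl, an enzyme of arginine synthesis (0.973), Slc7a8 most like Slc22a23 (0.95), and Slc7a7 most like Slc6a8, the creatine carrier (0.914). Slc3a2 had none of these genes above 0.795, that of Lgmn. Slc3a2 and Slc7a7 were closer to a member than to these genes (0.87 between them, and 0.92 for Slc7a7 and Slc7a9). Among pairs of members r was between 0.37 (Slc3a2 and Slc6a18) and 0.99 (Slc3a1 and Slc1a1).

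Slc36a2, a proton-coupled carrier of small amino acids that is also known from fat cells, had the largest rise of the 29 listed genes in Veh compared to WT (log2 6.36, SE 0.86, adjusted p = 1.31e-06). It was between 0.041 and 0.286 CPM in WT and between 3.98 and 27.2 CPM in Veh. The 5 adipocyte markers summed to 1.68 to 18.3 CPM in WT. In Veh they were at 350.9 to 410.1 CPM in mice A1, A4 and A9, and at 0.593 to 23.4 in A16, A19 and A20. Slc36a2 was highest in A4 in Veh and in A12 in anti-miR-21 (13.9 CPM), where the markers were at 366.4 and 224.2 CPM. In ACEi mice the markers were at 0.525 to 8.09 CPM and Slc36a2 at 2.62 to 3.10 CPM. The part of adipocyte RNA in the level of Slc36a2 was not tested.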
